A study of Mus musculus with 13 samples.

Results

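Glutathione and antioxidant defence was followed through 10 genes, Ggt1, Gclc, Gclm, Gss, Gsr, Gpx1, Gpx4, Prdx1, Txnrd1 and Hmox1, in RNA sequencing (RNAseq) of sorted mouse thymocytes. The genes were chosen by name, and all 10 were present among the 47937 genes of the count table. Ggt1 stood on the list because its level in DN4 cells had been seen to differ between the genotypes, so its values in that comparison are a description and carry no test. Libraries came from DN3 and DN4 thymocytes, the double-negative stages before and after β-selection, of 7 C57BL/6 mice aged 6 weeks by the labels. Control mice were WT;Lck-Cre+ (Wt, 3 DN3 and 4 DN4 libraries) and the others Opa1fl/fl;Lck-Cre+ (KO-labelled, 3 DN3 and 3 DN4 libraries). Both genotypes carried Cre recombinase under the Lck promoter, which is active in developing T cells, and none of the mice was treated. OPA1 is a GTPase of the inner mitochondrial membrane that shapes the cristae. Mice are named by genotype and number as in the labels (WT05, KO45), and 6 of the 7 gave a library of each stage.

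Glutathione is a small thiol made in the cytosol from glutamate, cysteine and glycine. Glutathione peroxidases spend it to reduce peroxides, and glutathione reductase regenerates it with NADPH, while the thioredoxin and peroxiredoxin system runs beside it on the same reductant. Outside the cell, γ-glutamyltransferase opens glutathione into amino acids that can be taken up again, and several genes of the system are known targets of the transcription factor NRF2. In pre-T cells, which proliferate strongly after β-selection, the catalytic subunit of glutathione synthesis and the peroxidases are part of the defence against oxidants made by respiration.

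Known NRF2 targets carry the antioxidant response element, so its core letters TGACNNNGC were searched on both strands of the RefSeq promoters (250 bases before to 50 after each start, GRCm38.p6). The letters were present in 12.4% of the 32851 promoter entries and, in any promoter of a gene, in 14.0% of the 27025 genes with an entry. Of the 10 antioxidant genes 7 had an entry (Gclc, Gsr and Hmox1 were not found in this table), and 4 of these held the letters: Gclm, Prdx1, Ggt1 and Txnrd1. Windows of 30 bases around the matches before the start site follow, with the matched letters in capitals. Sequence is written 5′ to 3′ on the strand of the gene, and the capitals share letters because the search required them.
Gclm, chr3:122245413-122245442, + strand: gctcccgggcGCACCGTCAactctcacgag
Prdx1, chr4:116685456-116685485, + strand: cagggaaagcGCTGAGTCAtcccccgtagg
Ggt1, chr10:75568616-75568645, + strand: gaagggaggaGCTGGGTCActgctggggat
Ggt1, chr10:75571467-75571496, + strand: gtcacaagccTGACGCTGCgcctccttgcg
Txnrd1, chr10:82859104-82859133, + strand: ctggatttttGCTTTGTCAttctgacacgg
The match lay on the opposite strand in all of these but the last Ggt1 window. A match describes letters only, and Gss, Gpx1 and Gpx4 had none in their windows.

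Selenocysteine sits in the active site of 3 of the encoded enzymes, where the codon TGA is read as that amino acid instead of stop. Coding sequence around the codon is shown to place it, with TGA in capitals, from GENCODE M21 on GRCm38.
Gpx1, TGA at chr9:108339451-108339453, + strand, codon 47 of 201: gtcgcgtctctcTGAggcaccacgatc
Gpx4, TGA at chr10:80054737-80054739, + strand, codon 73 of 197: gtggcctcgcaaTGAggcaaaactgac
Txnrd1, TGA at chr10:82896037-82896039, + strand, codon 498 of 499: cagtctggctgcTGAggt
In the Txnrd1 transcript the codon was followed by only 1 more. Codon numbers are those of the transcripts Gpx1-201, Gpx4-202 and Txnrd1-201.

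Libraries held 5926848 to 14148661 counts. Opa1, the targeted gene, was at 98.3 ± 11.7 CPM (counts scaled to library size by TMM, mean ± SD) in Wt DN3 and 90.6 ± 2.79 in KO-labelled DN3 (n = 3 each), and at 89.0 ± 3.93 (n = 4) and 82.1 ± 5.53 (n = 3) in DN4. Its genotype groups overlapped at both stages, with fitted changes of −0.12 in DN3 and −0.08 in DN4 (log2, edgeR quasi-likelihood test, adjusted p = 1 and 0.945), so these counts over the whole gene do not show the deletion and the name KO-labelled is kept throughout. The paper reports a reduced OPA1 protein level in immunoblots of thymocytes from mice of this genotype, which these counts do not measure. Il2ra, the CD25 gene that defines DN3, fell from 727 to 1337 CPM in the DN3 libraries to 9.78 to 24.1 CPM in DN4, as the stage labels require. The DN3 library of WT05 stood apart, with 20.1% of its counts in Gm42418 (at most 1.17% for the top gene of any other library) and the fewest counts. Summed CPM of 6 B-cell markers was 20.9 to 54.7 in DN3 libraries and 231 to 2950 in DN4 libraries, with 4 DN4 libraries over 1000 (WT05, WT48, KO45 and KO49). Summed immature single positive and DP markers were 64.4 to 140.4 CPM in DN3 and 458 to 3086 in DN4. Erythroid markers, which bear on heme genes, stayed at 0 to 6.19 CPM. In bulk RNA of this kind, fewer cells of a type and less RNA per cell cannot be told apart.

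**Figure D1:**
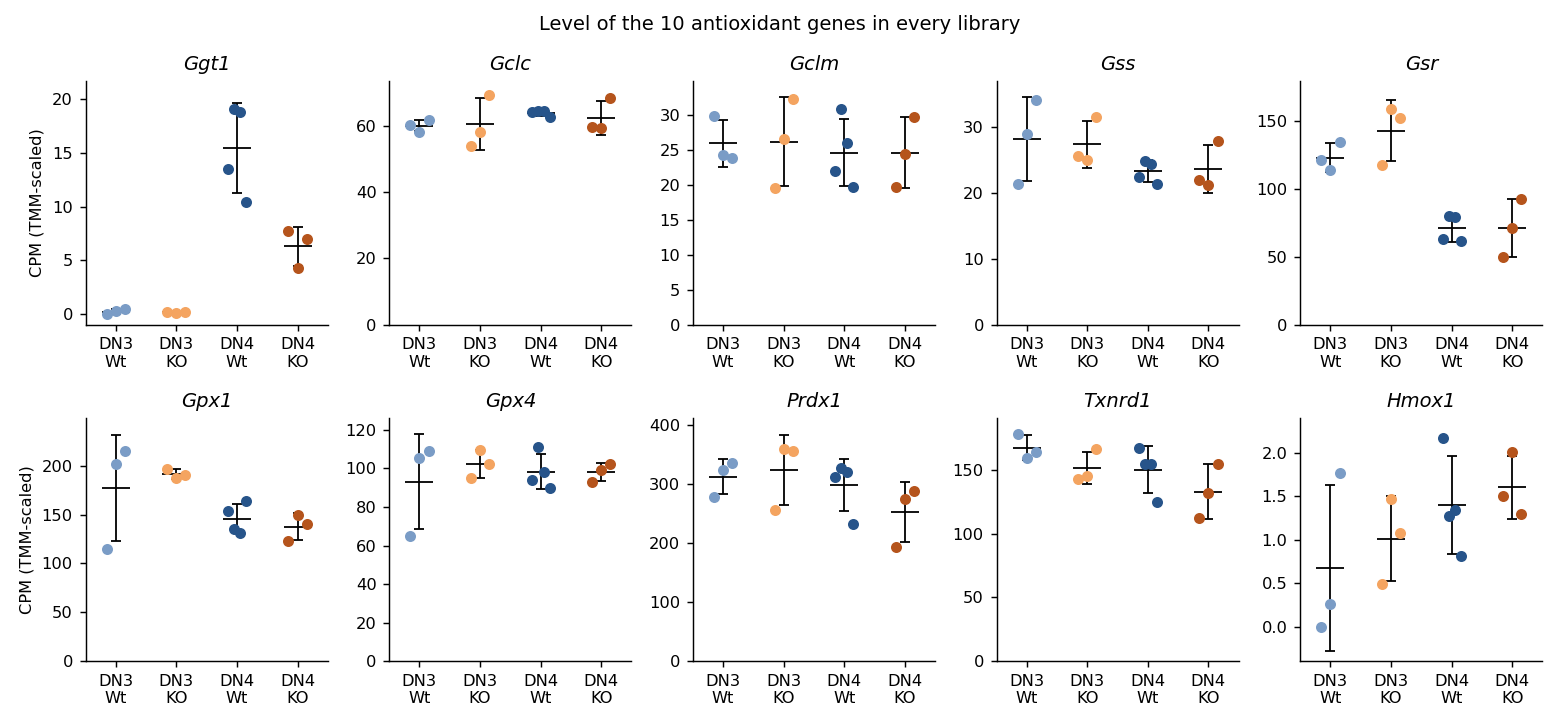
Level of each of the 10 genes in all 13 libraries, as CPM on TMM-scaled library sizes (y axis, a scale of its own per gene); points are libraries, the bar is the mean and the whiskers 1 SD, in groups of 3 (DN3 Wt, DN3 KO-labelled, DN4 KO-labelled) or 4 (DN4 Wt). Ggt1 lay at or below 0.441 CPM in DN3 and at 4.29 to 19.1 CPM in DN4, Gsr was lower in DN4 than in DN3 in both genotypes, and the single low DN3 Wt point of Gpx1 and Gpx4 is WT05.

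Set per kilobase of exon, for a rough comparison between genes, the peroxidase and peroxiredoxin genes stood highest. Length was all annotated exon bases of a gene (1441 for Gpx1, 5915 for Gss and 7086 for Txnrd1), not that of the transcript expressed. The order of the genes and the ratios per length depend on this choice. Mean levels by group were 95.5 to 133 CPM per kb for Gpx1, 82.9 to 106.5 for Prdx1 and 54.0 to 59.3 for Gpx4. The reductases followed, with 25.8 to 51.9 CPM per kb for Gsr and 18.7 to 23.6 for Txnrd1. Synthesis genes were lower, at 16.0 to 17.0 CPM per kb for Gclc, 3.94 to 4.75 for Gss and 3.91 to 4.17 for Gclm. Hmox1 was at 0.386 to 0.914, and Ggt1 ranged from 0.0483 in KO-labelled DN3 to 4.53 in Wt DN4. Libraries of Gss and Gclm overlapped in every group, and those of Gpx1 and Prdx1 in every group but KO-labelled DN3. Gsr and Gpx4 overlapped in Wt DN3 (44.8 ± 3.78 and 54.0 ± 14.2 CPM per kb) and in KO-labelled DN3 (51.9 ± 8.08 and 59.3 ± 4.24), and Gsr and Txnrd1 in DN4 of both genotypes (25.8 ± 3.58 and 21.2 ± 2.55 in Wt, 25.9 ± 7.85 and 18.7 ± 3.01 in KO-labelled mice). Gclc (16.6 ± 1.38) overlapped with both of these reductases in KO-labelled DN4. Ggt1 overlapped with Hmox1 in Wt DN3 and with Gss and Gclm in Wt DN4.

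Between DN3 and DN4, Gsr was lower in DN4 in both genotypes and Gpx1 was lower in KO-labelled mice. These were 1 of the 9 genes other than Ggt1 in Wt and 2 of 9 in KO-labelled mice, and none of the 9 was called higher. Ggt1 was higher in DN4 in both genotypes, but it passed the filter on low counts only through the DN4 libraries, so its stage change is given as a description with no test. Of all 12691 genes tested in Wt, 13.4% were called higher and 9.43% lower in DN4, so 1 of 9 lower was near that background. Among KO-labelled mice 12580 genes were tested, with 11.2% called higher and 7.34% lower. The median change of the 10 genes was −0.09 in Wt and −0.16 in KO-labelled mice (log2), against −0.03 and −0.02 over all genes tested. All calls are at an adjusted p under 0.05 over all genes tested.

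Ggt1 (ENSMUSG00000006345, chr10:75561604-75586200, + strand) encodes γ-glutamyltransferase, the cell-surface enzyme that starts glutathione breakdown. It had 0, 3 and 4 counts in the Wt DN3 libraries of WT05, WT46 and WT48, and 2, 1 and 2 in the KO-labelled DN3 libraries of KO45, KO49 and KO51. DN4 libraries of Wt mice held 13.5 (WT05), 19.1 (WT40), 18.8 (WT46) and 10.5 (WT48) CPM, from 103 to 238 counts. Those of KO-labelled mice held 7.73 (KO45), 4.29 (KO49) and 6.97 (KO51) CPM, from 62 to 108 counts. Every DN4 library was above every DN3 library. Summed over libraries, DN4 exceeded DN3 53.1-fold in Wt and 37.2-fold in KO-labelled mice, ratios that rest on 7 and 5 DN3 counts. The fitted changes were 5.66 in Wt and 5.12 in KO-labelled mice (log2), and the DN4 libraries behind them are those for which Ggt1 was listed.

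In DN4, all KO-labelled libraries lay below all Wt libraries for Ggt1, 6.33 ± 1.81 (n = 3) against 15.5 ± 4.22 CPM (n = 4), a fitted change of −1.26 (log2), or 2.39-fold lower. This is the comparison for which the gene was listed, and the closest libraries were KO45 at 7.73 and WT48 at 10.5 CPM. Leaving out each DN4 library in turn gave changes between −1.45 and −1.02, from the same libraries for which the gene was listed, so this range is no support. Its change from DN3 to DN4 differed between the genotypes by −0.54 (log2), given without a test for the same reason. In DN3 the genotypes overlapped at 0 to 4 counts, and the gene was too low to be tested there. Among Wt DN4 libraries Ggt1 ran opposite to the B-cell marker sums: the 2 with sums of 323 and 432 CPM (WT40, WT46) held the most Ggt1 and the 2 with 1553 and 2950 (WT05, WT48) the least. Among KO-labelled libraries the lowest Ggt1 stood with the highest sum (KO49, 1756 CPM), but KO51, with the lowest sum (231 CPM), held less Ggt1 than KO45 (1014 CPM). Summed immature single positive and DP markers ran in the order of Ggt1 within both genotypes. They were at 1922 (WT40), 1276 (WT46), 750 (WT05) and 458 (WT48) CPM in Wt and 3086 (KO45), 1223 (KO51) and 913 (KO49) in KO-labelled libraries. Summed γδ T markers ran in the reverse order within both genotypes. They were at 782 (WT40), 861.5 (WT46), 1285 (WT05) and 1951 (WT48) CPM in Wt and 622.6 (KO45), 900.1 (KO51) and 950.7 (KO49) in KO-labelled libraries. In DN4 the genotypes overlapped in the B-cell, immature single positive and DP, T lineage, myeloid, erythroid, γδ T, plasmacytoid dendritic and stromal sums. They did not overlap in 2 others. NK and innate lymphoid markers were lower in KO-labelled libraries, at 48.7 to 71.3 CPM against 83.4 to 104.5 in Wt, and DN3 markers were higher, at 679 to 843 against 564 to 588. The part of these cells in the Ggt1 values was not tested.

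**Figure D2:**
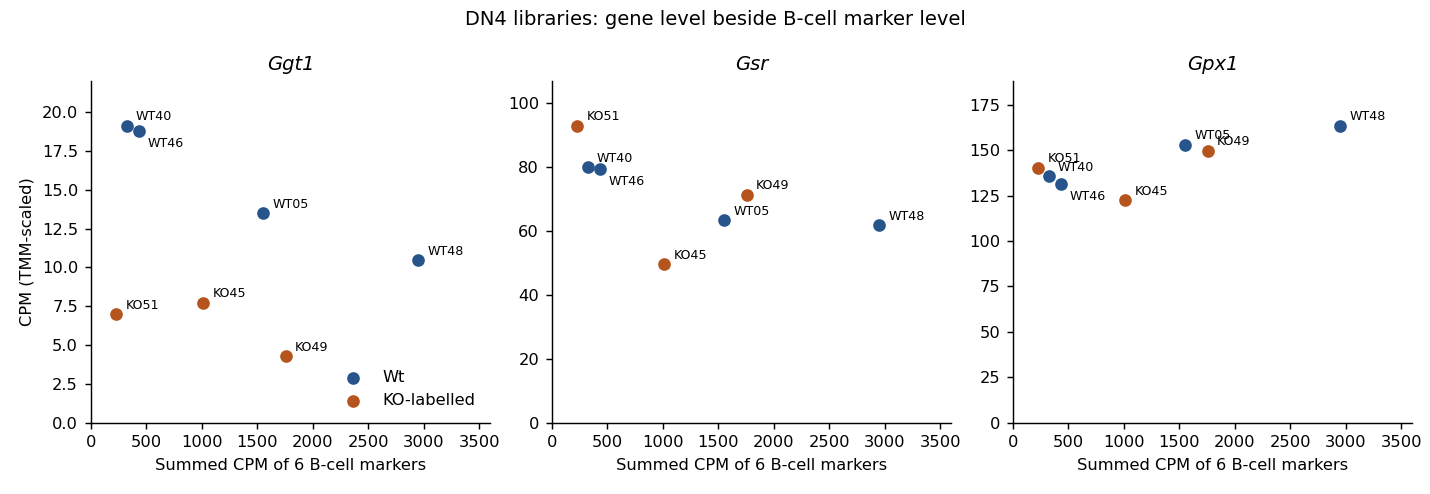
CPM of Ggt1, Gsr and Gpx1 (y axes) against the summed CPM of 6 B-cell markers (x axis) in the 4 Wt and 3 KO-labelled DN4 libraries, each point labelled by mouse. Sums ran from 323 to 2950 CPM in Wt and from 231 to 1756 in KO-labelled libraries; each KO-labelled point of Ggt1 lies below each Wt point, while Gsr and Gpx1 of the genotypes overlapped.

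By the measure of likeness used here, Spearman's rho of log2 CPM over the 13 libraries among 13361 genes, Dok2 (rho = 0.973, Pearson's r = 0.959), Pitpna (0.973, 0.833) and Fyn (0.967, 0.984) were most like Ggt1. Dok2 encodes an adaptor of tyrosine kinase signalling, Pitpna a phosphatidylinositol transfer protein and Fyn a Src-family kinase of T cells. Libraries share stage, mouse and cell composition, so these values only describe the order of the libraries. Their rises were far smaller than that of Ggt1. Dok2 went from 39.3 ± 14.05 CPM in DN3 to 111 ± 19.2 in DN4 in Wt and from 41.1 ± 4.61 to 82.3 ± 8.36 in KO-labelled mice. Pitpna went from 185 ± 25.3 to 218 ± 4.16 in Wt and from 189 ± 5.54 to 205 ± 5.26 in KO-labelled mice. Fyn was at 70.6 ± 16.9 CPM in Wt DN3 and 77.3 ± 5.99 in KO-labelled DN3 (n = 3 each), and at 192 ± 13.2 (n = 4) and 166 ± 18.5 (n = 3) in DN4.

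None of the 3 genes of glutathione synthesis passed the test in any comparison with all libraries of its groups in the fit. Gclc, the catalytic subunit of glutamate-cysteine ligase, was at 60.1 ± 1.73 (Wt) and 60.5 ± 7.84 (KO-labelled) CPM in DN3 and at 64.0 ± 0.942 and 62.4 ± 5.19 in DN4. Its Wt stage groups did not overlap, from 58.3 to 61.8 CPM in DN3 and 62.6 to 64.5 in DN4, yet the change was 0.06 (log2, 95% interval −0.14 to 0.27, adjusted p = 0.658). Gclm, the modifier subunit, ranged from 19.6 to 32.4 CPM over all libraries, with every pair of groups overlapping and stage changes of −0.09 in Wt (interval −0.51 to 0.33) and −0.11 in KO-labelled mice (−0.62 to 0.40). Per length, Gclc exceeded Gclm 3.90-fold to 4.45-fold in the group means. Gss, glutathione synthetase, which adds glycine, was at 28.1 ± 6.37 and 27.4 ± 3.57 CPM in Wt and KO-labelled DN3 and at 23.3 ± 1.66 and 23.7 ± 3.69 in DN4. Its stage change of −0.31 in Wt (−0.70 to 0.08, adjusted p = 0.235, edgeR) depended on single DN3 libraries, at 21.4 (WT05), 28.9 (WT46) and 34.0 (WT48) CPM. WT05 lessens the fall, while WT48, the highest, enlarges it. Without the DN3 library of WT05 the change was −0.47 (adjusted p = 0.0407, edgeR). Gss (chr2:155563181-155592810, − strand) shares its locus with Acss2 and 2 antisense genes on the other strand, and the strand setting of the counting is not given in the sources used here, so its counts are less certain.

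Gsr (ENSMUSG00000031584, chr8:33652523-33698163, + strand), glutathione reductase, which returns oxidised glutathione to its reduced form, was lower in DN4 in both genotypes. In Wt mice it was at 121 (WT05), 114 (WT46) and 135 (WT48) CPM in DN3 and at 63.3 (WT05), 79.9 (WT40), 79.4 (WT46) and 61.9 (WT48) in DN4. KO-labelled mice had 118 (KO45), 159 (KO49) and 152 (KO51) CPM in DN3 and 49.7, 71.3 and 92.9 in DN4. No DN4 library reached a DN3 library in either genotype, and the level fell within each of the 6 mice sampled at both stages. Fitted changes were −0.82 ± 0.131 in Wt (1.76-fold lower, 95% interval −1.12 to −0.52, adjusted p = 0.00323, edgeR) and −1.02 ± 0.225 in KO-labelled mice (2.03-fold lower, −1.54 to −0.51, adjusted p = 0.0169). Without WT05 in DN3, the Wt change was −0.84 (adjusted p = 0.00766). In KO-labelled mice the call was lost without the DN3 library of KO49 (−0.97, adjusted p = 0.0611) or of KO51 (−1.01, adjusted p = 0.0534).

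Among Wt DN4 libraries, Gsr was higher where B-cell markers were lower, at 79.9 and 79.4 CPM in WT40 and WT46 against 63.3 and 61.9 in WT05 and WT48. KO51, with the lowest sum, held the most Gsr of the KO-labelled libraries, but KO45 held less than KO49 although its sum was lower. Leaving out the 4 libraries over 1000 CPM of B-cell markers gave stage changes of −0.65 in Wt (adjusted p = 0.0210) and −0.62 in KO-labelled mice (adjusted p = 0.171, on 1 DN4 library). The 3 remaining DN4 libraries held 79.4 to 92.9 CPM of Gsr, and the lowest DN3 level was 114 CPM. Their B-cell marker sums, 231 to 432 CPM, were above the 20.9 to 54.7 CPM of the DN3 libraries. The part of B-cell RNA in the size of the change was not tested beyond these values.

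**Figure D3:**
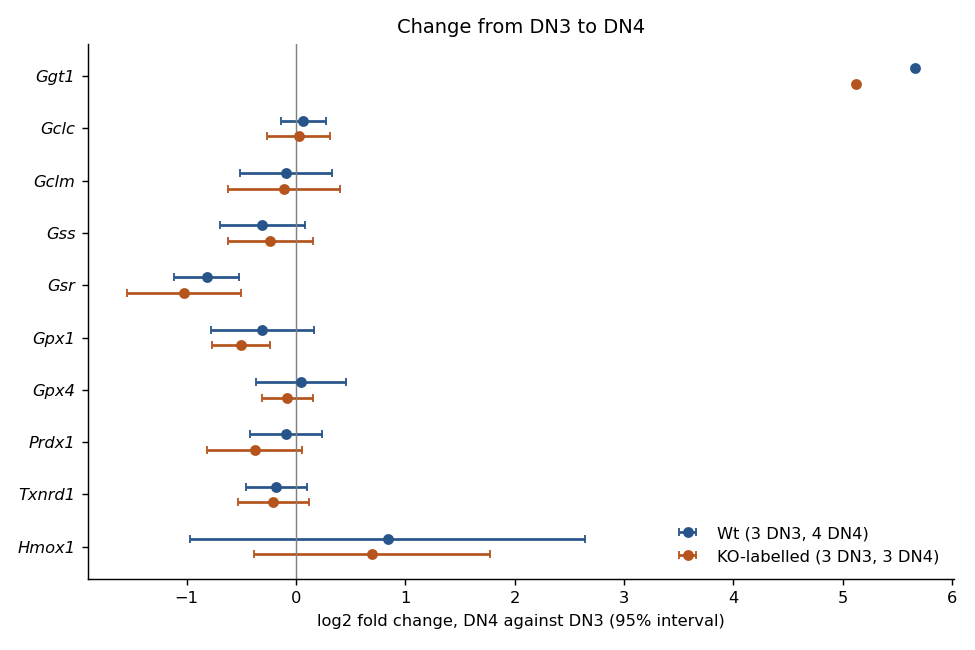
Fitted log2 fold change of each gene from DN3 to DN4 (x axis, DN4 against DN3) with its 95% interval, drawn without one for Ggt1, in Wt (blue, 3 DN3 and 4 DN4 libraries) and KO-labelled mice (orange, 3 and 3). Ggt1 lies at 5.66 and 5.12, Gsr at −0.82 and −1.02, Gpx1 at −0.31 and −0.50, and the intervals of the other 7 genes include 0 in both genotypes.

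Gpx1 (ENSMUSG00000063856, chr9:108338903-108340343, + strand), the cytosolic and mitochondrial glutathione peroxidase that reduces hydrogen peroxide, was lower in DN4 of KO-labelled mice. Its DN3 libraries held 197 (KO45), 188 (KO49) and 190.0 (KO51) CPM, and the DN4 libraries 122 (KO45), 149.8 (KO49) and 140.3 (KO51). These groups did not overlap, and the fitted change was −0.50 ± 0.115 (1.41-fold lower, −0.77 to −0.24, adjusted p = 0.0201, edgeR). The call was lost without the DN3 library of KO45 (−0.47, adjusted p = 0.0502), with all 13 libraries in the fit (−0.48, adjusted p = 0.0918) and without the B-cell rich libraries (−0.45, adjusted p = 0.222). In Wt mice DN3 libraries held 115 (WT05), 201 (WT46) and 215 (WT48) CPM and DN4 libraries 132 to 164, a change of −0.31 ± 0.205 (adjusted p = 0.325). Without WT05 in DN3 the Wt change became −0.55 (adjusted p = 0.0111, edgeR), and Gss was called too. Calls among all genes went from 22.9% of 12691 to 25.7% of 13213. The DN3 libraries of WT46 and WT48 work the other way, as both lie above every Wt DN4 library and enlarge the Wt fall. The stage change of Gpx1 differed between the genotypes by −0.19 (95% interval −0.75 to 0.36, adjusted p = 1).

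Gpx4, the peroxidase that reduces lipid hydroperoxides in membranes, did not pass the test in any comparison. It was at 65.0 (WT05), 105.6 (WT46) and 109 (WT48) CPM in Wt DN3 and at 94.8 to 109 in KO-labelled DN3, and at 90.0 to 111 in Wt DN4 and 93.1 to 102 in KO-labelled DN4. Stage changes were 0.05 in Wt (−0.36 to 0.45) and −0.08 in KO-labelled mice (−0.31 to 0.15), and without WT05 the Wt value was −0.16 (adjusted p = 0.322). Per length, Gpx1 was 2.25-fold Gpx4 in both DN3 groups, and 1.80-fold (Wt) and 1.68-fold (KO-labelled) in DN4. In single Wt libraries the ratio was 2.12 (WT05), 2.28 (WT46) and 2.36 (WT48) in DN3 and 1.46 to 2.17 in DN4, so the Wt stages overlapped. KO-labelled libraries ran from 2.05 to 2.48 in DN3 and from 1.57 to 1.81 in DN4, without overlap.

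Prdx1, a cytosolic peroxiredoxin, and Txnrd1, the cytosolic thioredoxin reductase, did not pass the test in any comparison fitted without the mouse as a block. Prdx1 (chr4:116685544-116700822, + strand) was at 313 ± 30.1 CPM in Wt DN3 and 324 ± 59.2 in KO-labelled DN3, and at 298 ± 44.1 and 252 ± 50.9 in DN4. Its change in KO-labelled mice was −0.38 (−0.81 to 0.05, adjusted p = 0.203). DN3 and DN4 libraries of KO-labelled mice are paired by animal, with Prdx1 lower in DN4 by 0.31 to 0.40 (log2) in each. The fit with the mouse as a block gave −0.39 (adjusted p = 0.00485), a call in a fit that called 35.8% of all 12580 genes, against 18.6% without the block. Wt mice differed among themselves, with within-mouse changes of 0.16 (WT05), −0.01 (WT46) and −0.53 (WT48).

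Txnrd1 (chr10:82833951-82897712, + strand) was at 167 ± 9.87 CPM in Wt DN3, 151 ± 12.7 in KO-labelled DN3, 150.1 ± 18.1 in Wt DN4 and 133 ± 21.3 in KO-labelled DN4. Its stage changes were −0.18 (−0.45 to 0.10) and −0.21 (−0.53 to 0.11). Eid3 lies within the same locus on the same strand, so reads there could be counted to either gene. Per length, the ratio of Gsr to Txnrd1 was 1.90 ± 0.191 in Wt DN3 and 2.44 ± 0.356 in KO-labelled DN3, and 1.23 ± 0.168 and 1.36 ± 0.205 in DN4. Every DN4 library was below every DN3 library in this ratio, which repeats the fall of Gsr and is no separate test.

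Hmox1, heme oxygenase 1, which opens heme into biliverdin, iron and carbon monoxide, was low in all libraries. It had 0, 3 and 16 counts in Wt DN3, 6, 11 and 11 in KO-labelled DN3, 8 to 26 in Wt DN4 and 13 to 29 in KO-labelled DN4. All groups overlapped, with stage changes of 0.84 in Wt (−0.97 to 2.65) and 0.69 in KO-labelled mice (−0.38 to 1.77). Without the DN3 library of WT48 the Wt value was 2.78 (adjusted p = 0.0687, edgeR) and without that of WT46 it was 0.38 (adjusted p = 0.804). Summed over libraries, DN4 against DN3 was 1.79-fold in Wt (64 and 19 counts, 95% exact binomial interval 1.059 to 3.163) and 1.745-fold in KO-labelled mice (63 and 28 counts, 1.101 to 2.829). These intervals cover counting error only and exclude 1, while the fitted ones, which also hold the spread between mice, include no change.

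Between the genotypes, none of the tested antioxidant genes was called at either stage. In DN3, 9 of the 10 could be tested and 0 passed, beside 0% of 12105 genes (0 called, 168 genes at an unadjusted p under 0.05, and 1 by DESeq2, with 0 of the 9 genes among either). Changes ran from −0.15 (Txnrd1, 95% interval −0.44 to 0.14) to 0.34 (Hmox1, −1.73 to 2.41), with Gsr at 0.21 (−0.14 to 0.55). In DN4, 0 of the 9 genes other than Ggt1 passed, beside 0.0535% of 13084 genes (7 called, 715 at an unadjusted p under 0.05, and 53 by DESeq2, with 0 of the 9 genes among either). Changes there ran from −0.21 (Prdx1, −0.61 to 0.18) to 0.22 (Hmox1, −0.66 to 1.11). Gclc was at 0.00 in both stages, with intervals of −0.31 to 0.31 in DN3 and −0.21 to 0.21 in DN4. In DN4 the 95% intervals of Gss and Gpx4 reached 0.38 and 0.26 (log2) at their upper end, and those of Gsr and Gclm 0.51 and 0.48.

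**Figure D4:**
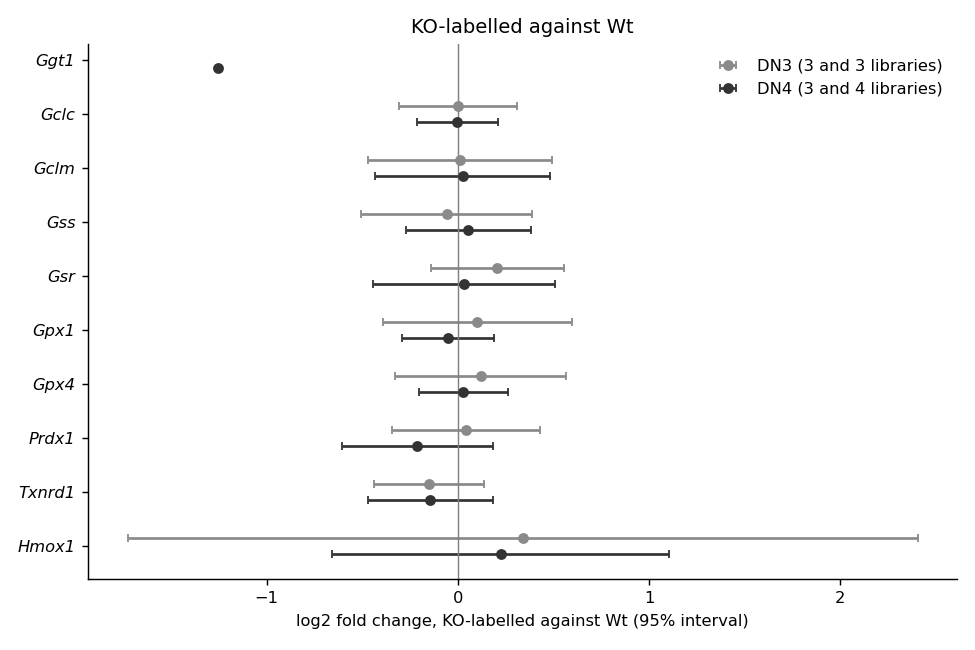
Fitted log2 fold change of KO-labelled against Wt libraries (x axis) with its 95% interval, in DN3 (grey, 3 and 3 libraries) and DN4 (black, 3 and 4). Ggt1 is drawn in DN4 only and without an interval, at −1.26, as it was listed for this value; the intervals of the other 9 genes include 0 at both stages, and Hmox1 has the widest.

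Whether the stage change itself differed between genotypes was tested as an interaction term fitted to the 13 libraries together. Of the 9 genes other than Ggt1, 0 passed, beside 0% of 13361 genes (0 called, 480 at an unadjusted p under 0.05, and 0 by DESeq2, with 0 of the 9 genes among either). Differences ran from −0.29 (Prdx1, −0.84 to 0.25) to 0.07 (Gss, −0.46 to 0.60). For Gsr the difference was −0.21 (−0.80 to 0.38).

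Around the 10 genes, 102 further genes of the same systems in 7 lists were examined. In Wt mice 83 could be tested, of which 7 (8.43%) were called higher and 9 (10.8%) lower in DN4. Among KO-labelled mice 84 could be tested, with 8 higher and 8 lower (9.52% each). These shares lay near those of all genes given above. Ggt7 among the higher genes in both genotypes, and Gstt3 among the lower in KO-labelled mice, passed the filter only through the stage where they were high, so their calls carry no weight. None of the 102 was called between genotypes at either stage or in the interaction by edgeR or DESeq2, while 2 in DN3, 7 in DN4 and 0 in the interaction had an unadjusted p under 0.05.

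In the list of glutathione supply and the γ-glutamyl cycle 8 of 14 genes could be tested, and the calls include Ggt7. In Wt 1 was called higher and 1 lower (12.5% each, beside 13.4% and 9.43% of all genes). In KO-labelled mice 2 were higher and 0 lower (25% and 0%, beside 11.2% and 7.34%). Ggt7, a relative of Ggt1, was at 0.982 CPM in DN3 and 8.25 in DN4 in Wt means, and at 1.13 and 6.22 in KO-labelled means. Lap3, a leucine aminopeptidase that also cuts cysteinylglycine, was called lower in Wt (−0.57 ± 0.105, adjusted p = 0.00607) and was at −0.68 in KO-labelled mice (adjusted p = 0.123). Slc7a11, the cystine importer that supplies cysteine, was called higher in DN4 of KO-labelled mice (3.06 ± 0.819, adjusted p = 0.0359) and was at 2.48 in Wt (adjusted p = 0.104). Its DN4 levels were 49.04 (KO45), 5.95 (KO49) and 7.77 (KO51) CPM, so KO45 stood far above the others, and the Wt libraries held 2.17 (WT05), 12.2 (WT40), 2.68 (WT46) and 0.710 (WT48). Within both genotypes this is the order of the summed immature single positive and DP markers given beside Ggt1, and their part was not tested. Chosen after its values were seen, Slc7a11 in DN3 was at 2.14 to 2.79 CPM in KO-labelled and 0.551 to 1.06 CPM in Wt libraries. These values rest on 21 to 26 and 2 to 12 counts, and the gene was not called between genotypes there.

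Of the glutathione peroxidases and transferases, Gsta4, which conjugates the lipid peroxidation product hydroxynonenal, was higher in DN4 in Wt (2.02 ± 0.424, adjusted p = 0.0102) and KO-labelled mice (1.67 ± 0.314, adjusted p = 0.00894). Gsto1, an omega-class transferase, was lower in both, by −1.19 ± 0.123 (adjusted p = 0.000424) and −1.25 ± 0.159 (adjusted p = 0.00194), from 65.9 to 29.6 CPM in Wt means and from 76.7 to 32.9 in KO-labelled means. Gstz1 was called lower in Wt (−0.45, adjusted p = 0.0381) and was at −0.48 in KO-labelled mice (adjusted p = 0.121). Gstp1 was called lower in KO-labelled mice (−0.65, adjusted p = 0.0299) and was at −0.44 in Wt (adjusted p = 0.0812). Calls in this list came to 1 higher and 2 lower of 16 tested in Wt, and 1 higher and 3 lower of 17 in KO-labelled mice, Gstt3 included. These are 6.25% and 12.5% in Wt, beside 13.4% and 9.43% of all genes, and 5.88% and 17.6% in KO-labelled mice, beside 11.2% and 7.34%.

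The thioredoxin, glutaredoxin and peroxiredoxin list held 4 genes called higher and 0 called lower of 21 tested in Wt, and 2 in each direction in KO-labelled mice. In Wt this was 19.0% higher and 0% lower, beside 13.4% and 9.43% of all genes, and in KO-labelled mice 9.52% each way, beside 11.2% and 7.34%. Sesn3 and Sesn1, sestrins known as stress-regulated antioxidant and nutrient sensors, were higher in both genotypes, Sesn3 by 1.56 ± 0.241 (adjusted p = 0.00280) and 1.23 ± 0.139 (adjusted p = 0.00126) and Sesn1 by 0.84 (adjusted p = 0.0140) and 0.66 (adjusted p = 0.0189). Txnip, the thioredoxin-binding protein that restrains thioredoxin and glucose uptake, was called higher in Wt (1.39 ± 0.271, adjusted p = 0.00756) and was at 0.70 in KO-labelled mice (adjusted p = 0.242). Prdx4, the peroxiredoxin of the endoplasmic reticulum, was called higher in Wt (0.71, adjusted p = 0.0135) and was at 0.47 in KO-labelled mice (adjusted p = 0.112). Prdx3, of the mitochondria, and Prdx6 were called lower in KO-labelled mice (−0.48 and −0.53, adjusted p = 0.0480 and 0.0144) and were at −0.28 and −0.31 in Wt (adjusted p = 0.182 and 0.192).

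Of 13 tested genes of superoxide removal and NADPH supply, 0 were called higher and 4 lower in Wt (30.8%, beside 9.43% of all genes lower), and 0 higher and 1 lower in KO-labelled mice (7.69%, beside 7.34%). Idh2, the mitochondrial NADPH-forming isocitrate dehydrogenase, was lower in both (−0.77 ± 0.191 and −0.63 ± 0.138, adjusted p = 0.0213 and 0.0164). Tkt, the transketolase of the pentose phosphate pathway, and Nnt, the mitochondrial transhydrogenase, were lower in Wt (−0.51 and −0.44, adjusted p = 0.0237 and 0.0184). Sod2, the mitochondrial superoxide dismutase, was also called lower in Wt (−0.37, adjusted p = 0.0375), being at 68.5 ± 1.57 CPM in DN3 and 54.1 ± 4.57 in DN4, and its value in KO-labelled mice was −0.56 (adjusted p = 0.0893). Tkt and Nnt were at −0.42 and −0.30 there (adjusted p = 0.250 and 0.0601). A call in 1 genotype alone is no difference between them, and the interaction called none of these genes.

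In the NRF2 list of 10 tested genes, 1 was called higher and 1 lower in each genotype, which is near the shares of all genes (13.4% and 9.43% in Wt, 11.2% and 7.34% in KO-labelled mice). Bach2, a repressor that binds the same class of element, was higher in DN4 by 1.99 ± 0.367 (adjusted p = 0.00604) and 1.89 ± 0.341 (adjusted p = 0.00781), and Mafk, a small Maf partner of NRF2, lower by −0.77 ± 0.116 (adjusted p = 0.00245) and −0.53 ± 0.126 (adjusted p = 0.0233). Bach2 is also a gene of B cells, whose markers were higher in the DN4 libraries by the sums given above, and their part in its rise was not tested. Nfe2l2, which encodes NRF2, was at 51.4 ± 6.20 and 54.6 ± 4.64 CPM in Wt and KO-labelled DN3 and at 58.8 ± 1.33 and 62.9 ± 1.10 in DN4 and was not called. In the heme and iron list 0 of 8 were called in Wt (2 at an unadjusted p under 0.05) and 2 higher and 1 lower in KO-labelled mice (25% and 12.5%, beside 11.2% and 7.34% of all genes). Blvrb and Ftl1 were called higher in KO-labelled mice (2.18 and 0.38, adjusted p = 0.0101 and 0.0295) and were at 1.75 and 0.44 in Wt (adjusted p = 0.0707 and 0.0671). Tfrc, the transferrin receptor, was called lower in KO-labelled mice (−0.70, adjusted p = 0.0160) and was at −0.42 in Wt (adjusted p = 0.175). Of the 7 genes of selenoprotein synthesis only Eefsec, the selenocysteine elongation factor, was called, lower in Wt (−0.37, adjusted p = 0.0443), with −0.14 in KO-labelled mice (adjusted p = 0.352). That is 14.3% lower in Wt and 0% in KO-labelled mice, beside 9.43% and 7.34% of all genes.

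**Figure D5:**
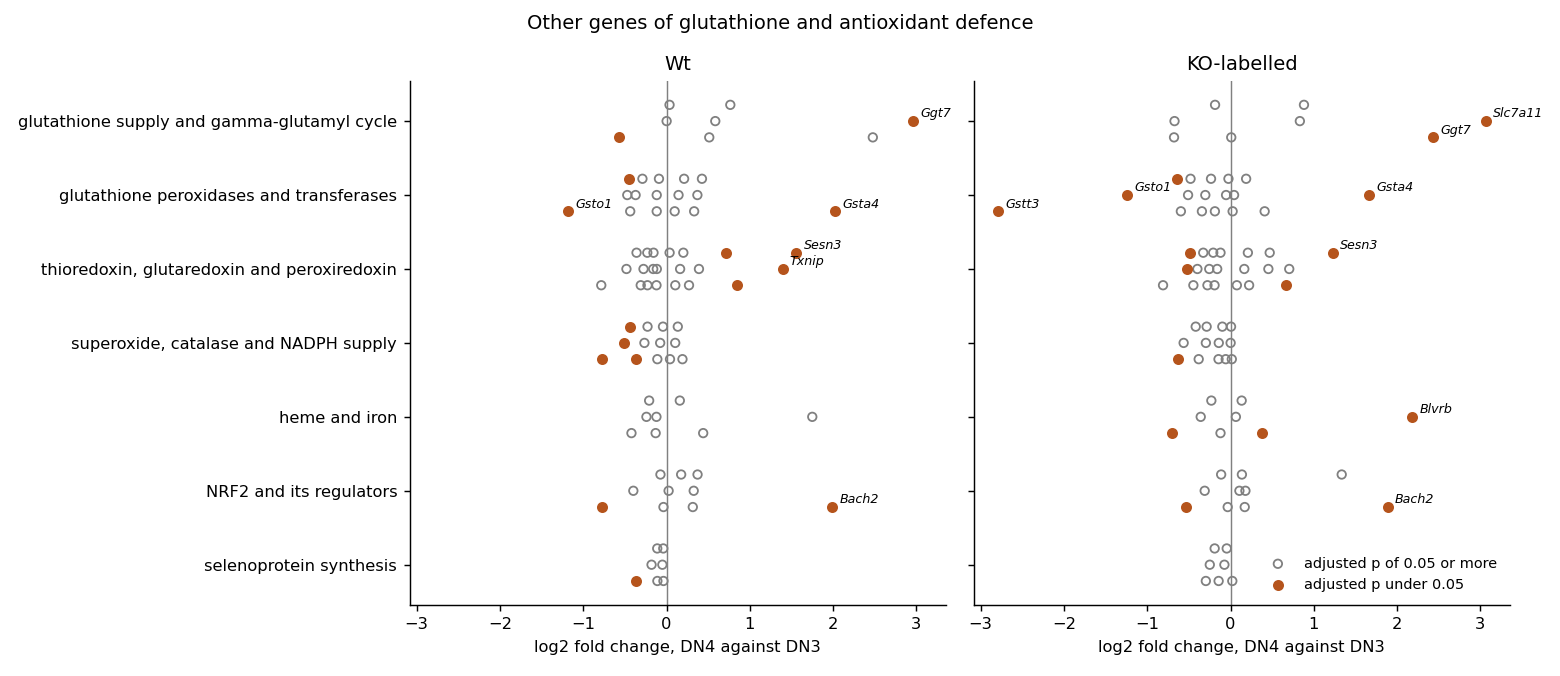
Fitted log2 fold change from DN3 to DN4 (x axis) of each tested gene in the 7 lists (y axis) in Wt (left, 83 genes) and KO-labelled mice (right, 84 genes); filled points have an adjusted p under 0.05, and those beyond 1 in size are named. Filled points lie on both sides of 0, with 7 higher and 9 lower in Wt and 8 of each in KO-labelled mice.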

How the data were processed

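Poly(A) RNA of sorted thymocytes was made into stranded libraries and sequenced on a HiSeq instrument. The authors processed the reads with deepTools, Cutadapt, STAR and featureCounts on mm10 and deposited raw counts per gene; the strand setting of the counting is not given in the sources used here. The deposited counts are whole numbers for 47937 genes in 13 libraries, with 0 columns unused, and 47224 gene identifiers were found in GENCODE M21, which gave symbols, coordinates and exon lengths. Libraries were assigned to stage, genotype and mouse by their titles.

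Differences were tested on the counts by quasi-likelihood in edgeR 4.0.16 under R 4.3.3, with low genes removed by filterByExpr (minimum count 10) and TMM scaling, each comparison on its own groups and the interaction on all 13 libraries, with Benjamini-Hochberg adjustment over all genes tested and a threshold of 0.05. Levels are CPM on TMM-scaled library sizes. Within-mouse values and rho used log2 CPM with a prior count of 2. The scripts were tested on simulated data. With 5926848 to 14148661 counts a library, 1 count equals 0.0691 to 0.293 CPM. No libraries of a group agreed within sampling noise (chi-square per degree of freedom of 6.18 or more). Mice are separate animals, and 6 of them gave libraries of both stages, which pairs these libraries; deviations from the group means correlated by 0.124 to 0.460 within a mouse.

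Alternatives were DESeq2 size factors, no filter beyond 1 count, the Wald test of DESeq2 1.42.0, all 13 libraries in the fit, the mouse as a block and each library left out. Leaving out the DN4 libraries over 1000 summed B-cell marker CPM was added after seeing the data. The 10 genes, the lists and the tests were chosen with earlier results of these data known. Named are the 10 genes, up to 3 genes of each list and direction with the largest change among those called in the Wt stage comparison, the 3 genes most like Ggt1, and Opa1; Il2ra and the genes of the lists called in KO-labelled mice alone are named beside them, and Prdx4, Sod2 and Nfe2l2 were chosen after their values were seen. Promoter sequences come from RefSeq (GRCm38.p6). Myeloid markers were at 16.8 to 33.6 summed CPM, T lineage markers at 2333 to 3835, γδ T markers at 623 to 1951, NK and innate lymphoid markers at 16.1 to 44.7 in DN3, 83.4 to 104.5 in Wt DN4 and 48.7 to 71.3 in KO-labelled DN4, plasmacytoid dendritic markers at 418 to 1416 and stromal markers at 112 to 246. DN3 markers were at 2795 to 3750 in DN3 and 564 to 843 in DN4. Some markers had no counts in DN3 of either genotype, so the DN3 sums rest on the others of their lists. These were Siglech (plasmacytoid dendritic), Klrb1c and Ncr1 (NK and innate lymphoid), and Krt8, Psmb11 and Pdgfra (stromal).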

Additional observations from a re-analysis of the deposited data

Results flagged for a closer look

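In the Wt DN4 group, the only one with 4 libraries, 13 measures were examined for a library far from the others, of which 3 stood out, where chance gives about 1 in 20. Gclc was at 62.58 CPM in WT48 against 64.4 to 64.5 in the other three, a gap of under 2 CPM that rests on how closely the others lay together. Prdx1 was at 232.5 CPM in WT48 and at 312 to 327 in the others. The ratio of Gsr to Txnrd1 per length was 0.9772 in WT05 and 1.28 to 1.33 in the others. WT48 and WT05 were also the Wt DN4 libraries with the highest B-cell marker sums, 2950 and 1553 CPM; the part of this in these values was not tested.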

How the results depend on the processing

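Between the stages the counts below include Ggt1, which is no test, as it passed the filter only through DN4. Without it the main counts were 1 of 9 genes in Wt and 2 of 9 in KO-labelled mice. With it, leaving out each library in turn gave 2 to 4 of the 10 genes in Wt (4 without DN3 WT05, which added Gpx1 and Gss). Every other alternative gave 2 in Wt. In KO-labelled mice the count of 3 became 2 with all 13 libraries in the fit and 4 with the mouse as a block (which added Prdx1). It was 2 to 3 with each library left out. Leaving out the DN4 libraries over 1000 summed B-cell marker CPM leaves 1 KO-labelled DN4 library, so no count is given. Of all genes in Wt, 26.6% were called with all 13 libraries in the fit, 12.9% without the filter and 23.4% by DESeq2. In KO-labelled mice these shares were 20.3%, 13.7% and 19.2%, and 35.8% with the block. Both genotype comparisons and the interaction gave 0 of the 9 genes counted under every alternative. The paired fit, with the mouse as a block, could be made for the stage comparisons and the interaction and changed no other call. Counts over all genes moved too. With each library left out they were 1845 to 3393 (from 2903) in Wt and 1407 to 2790 (from 2338) in KO-labelled mice. They were 1766 in Wt without the B-cell rich libraries and 4499 in KO-labelled mice with the block. Between genotypes they were 0 to 1 (from 0) in DN3 and 0 to 8 (from 7) in DN4 with each library left out, 1 and 11 without the filter, 1 and 53 with DESeq2, and in DN4 897 without the B-cell rich libraries, on 3 libraries; the cause was not tested.

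Some values that were not called changed sign, none of them past the threshold after the change. Leaving out each library in turn did so for Gclm (−0.22 to 0.0018, log2), Gpx4 (−0.16 to 0.17) and Prdx1 (−0.18 to 0.0043) between Wt stages, and for Gclc (−0.063 to 0.11) and Gclm (−0.29 to 0.044) between KO-labelled stages. In the DN3 genotype comparison it did so for Gclc (−0.10 to 0.075), Gclm (−0.17 to 0.19), Gss (−0.20 to 0.10), Gpx1 (−0.12 to 0.27), Gpx4 (−0.072 to 0.25), Prdx1 (−0.037 to 0.19) and Hmox1 (−0.13 to 2.28). In the DN4 genotype comparison the genes were Gclc (−0.062 to 0.051), Gclm (−0.12 to 0.15), Gss (−0.069 to 0.14), Gsr (−0.19 to 0.23), Gpx1 (−0.10 to 0.013) and Gpx4 (−0.026 to 0.088). In the interaction they were Gclc (−0.12 to 0.063), Gclm (−0.20 to 0.16), Gss (−0.090 to 0.24), Gpx1 (−0.36 to 0.053), Gpx4 (−0.25 to 0.085), Txnrd1 (−0.16 to 0.074) and Hmox1 (−2.12 to 0.30). With all 13 libraries in the fit, Gclm and Gpx4 were at −0.0041 and −0.0029 in the DN4 genotype comparison, and with the block Gclm was at 0.11 in the interaction. Without the B-cell rich libraries, signs turned for Gclm (0.12) and Prdx1 (0.029) between Wt stages, Gclm (0.19), Gss (0.026) and Txnrd1 (0.033) between KO-labelled stages, Gclc (0.10), Gpx1 (0.090), Gpx4 (−0.016) and Txnrd1 (0.018) between genotypes in DN4, and Gclc (0.073), Gclm (0.043), Gsr (0.0062) and Txnrd1 (0.14) in the interaction. Depth limits Ggt1 in DN3, where 4 counts or fewer stand behind each value.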
